A study of Mus musculus with 19 samples.

Results

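Extrachromosomal circular DNA (eccDNA) from genes was described in the cervical spinal cord of 10 control mice, named C1 to C10, with 1 library per animal. A gene counted as present if its deposited value was above 0 in at least 1 of these libraries, and 2081 of the 8336 genes of the table (25.0%) were. The series holds 19 libraries, and those of the ALS mutants are not used here. Controls were wild-type C57BL/6J males without a transgene, matched in sex and age to mutants of 18 to 21 weeks, and the labels give no treatment. From each animal, 400 ng of DNA of the whole cervical segment received plasmid copies as internal controls, was digested for 7 days with exonuclease V, which degrades linear DNA, and then went through rolling circle amplification (RCA), which copies circular templates, over 48 h. The tissue is a mixture of neurons, glia and vessel cells, and the table measures DNA circles and not expression, so that neither the tissue label nor the cell of origin of a circle can be checked with marker genes.

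EccDNA is cut out of or copied from chromosomes when broken or looped DNA ends are joined to each other, and it has been found in healthy tissues of many organisms. Most circles of normal cells are much shorter than a gene and carry only a fragment of it. Circles without a centromere are distributed unevenly when a cell divides, while neurons no longer divide. Very long genes, many of which encode adhesion and synaptic proteins of neurons, are replicated late and include common fragile sites, which break under replication stress.

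The value of a gene is called its produced per gene eccDNA (PpGC). It is the number of split reads, which are reads that cross the junction of a circle, summed over all circles that overlap the gene and scaled up by the ratio of the longest gene (4434882 bp) to the gene's own length. The table gives log2(PpGC + 1). Because of this scaling, a long gene with the same split reads has a lower log2 PpGC than a short gene. With the gene lengths of GENCODE release M21 on the mm10 build, the split reads could be read back as whole numbers, within a tolerance of 0.02, for 98.5% of the control values of genes that have a length. A number counted as whole only from 2 up, the minimum that the authors set for a circle. The lowest number, 2, was therefore fixed by this rule. Circle lengths, positions and sequenced reads per library are not part of the table used here, and a circle that overlaps several genes enters each of them.

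The 10 libraries differed widely in how many genes they held. The number of genes was 243 ± 208 (SD, n = 10), with 723 in C1, 462 in C2, 109 in C3, 155 in C4, 57 in C5, 94 in C6, 160 in C7, 330 in C8, 214 in C9 and 130 in C10. C1 and C2 together therefore weigh heavily in all counts over the 10 libraries, and counts without them are given below. When overlapping genes with equal split reads were taken as 1 locus, the number was 221 ± 190 (SD, n = 10) loci. The split reads over all genes ranged from 3640 in C5 to 122927 in C7, with a median of 26616. In this sum, reads of a circle count for each gene that it overlaps, and with each locus counted once the range was 3586 in C5 to 94215 in C1, with 79341 in C7. The number of genes was not related to the sum over genes at the 0.05 threshold (Pearson r = 0.452, p = 0.182, and Spearman rho = 0.612, p = 0.0680, two-sided permutation test, 1 relation). With each locus counted once, r was 0.580 (p = 0.0629) and rho 0.661 (p = 0.0448, permutation test). Without C7 and C1, which lie farthest from the median of either sum, r was 0.344 (p = 0.406, exact permutation test, n = 8) for both sums, so that the relation rests on these libraries.

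**Figure D1:**
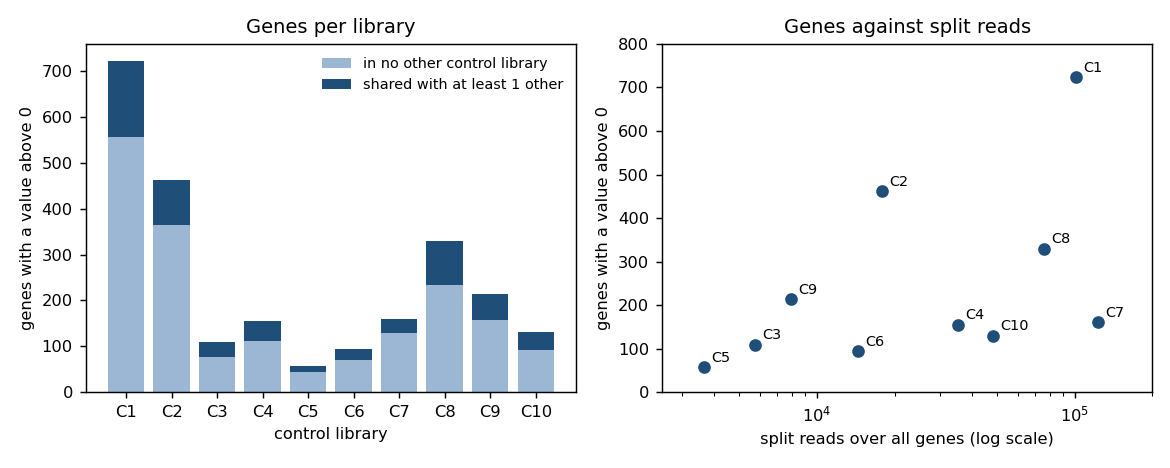
Left, bars give the number of genes with a value above 0 in each control library, divided into genes that no other control library held (light) and genes that at least 1 other held (dark). Right, the same numbers are plotted against the split reads over all genes on a log scale, 1 point per library, with C7 at 122927 split reads, in which a locus with several genes counts several times, and 160 genes and C2 at 17871 split reads and 462 genes.

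Where a gene was present, it was mostly supported by few split reads. Over the 2434 control values above 0, the median log2 PpGC was 8.72 (quartiles 6.61 and 11.38), and over the values with whole split reads the median was 7 split reads (quartiles 3 and 33). The median per library started at 4.50 split reads, with the highest, 12, in C1. Genes at the minimum of 2 split reads made up 14.8% of the genes with whole split reads in C1, the lowest share, and 28.8% in C4, the highest. A value at this minimum would have been listed as 0 with 1 split read less, so that presence and absence of such genes in a library are close to each other.

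A few loci carried most of the signal of a library. The 10 loci with the most split reads held 36.9% to 96.0% of all split reads of a library, with a median of 85.7%. The first locus alone held 61.5% in C6 and 54.2% in C7, but 4.79% in C2 and 7.51% in C1, the libraries with the most genes. RCA copies are not independent molecules, and the split reads of such a locus do not count circles. Which gene led was different in every library.

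**Figure D2:**
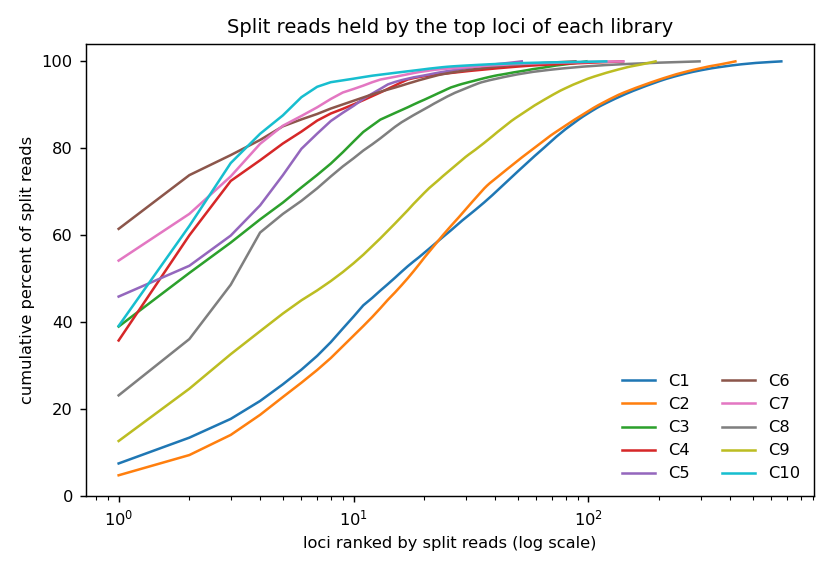
Cumulative percent of the split reads of each control library against the rank of its loci, from the locus with the most split reads on, with the rank on a log scale. The curves of C1 and C2 start lowest, at 7.51% and 4.79%, and the curve of C6 starts at 61.5%.

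The leading genes were of many kinds. In C1 it was Rabgap1l, a Rab GTPase-activating protein (7077 split reads), in C2 the RNA helicase gene Ddx19b (799), and in C3 the tetraspanin gene Tspan13 (2078). In C4, the pseudogene Gm13377 led with 9243 split reads, which it shared with the lincRNA Gm13376 lying inside it. The synaptic adhesion gene Nlgn1 led in C5 (1646), and Plppr1, a phospholipid phosphatase-related gene of neurons, in C6 (8720). These leading values came from genes of different function and length, from 27.9 kb for Tspan13 to 906 kb for Nlgn1.

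In C7, Scfd2, a gene of vesicle transport, had 42981 split reads, the highest number of any gene with whole split reads, and the pseudogene Gm15982 inside it had the same number. Because Gm15982 is only 1.84 kb long, its log2 PpGC of 26.63 was the highest value of all controls. Scn1a, which encodes a sodium channel of neurons, led in C8 with 16653 split reads. The centrosomal gene Cep128 led in C9 (905) among the genes with whole split reads, but the vomeronasal pseudogene Vmn2r-ps111, named here after its values were seen, came to 6270 split reads by its length, which was not a whole number, and is not in the sums. In C10 it was the lincRNA A230006K03Rik (18729). Of these leading genes, Rabgap1l, Ddx19b, Tspan13, Nlgn1, Scfd2 and Cep128 were in no other control library, whereas Scn1a had 4 split reads in C7, Plppr1 3 in C4, Gm13377 4 in C5, and A230006K03Rik 2 in C7 and 3 in C9.

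Most genes were found in a single animal. Of the 2081 genes, 1830 (87.9%) were in 1 library, 181 (8.70%) in 2, 46 (2.21%) in 3, 18 in 4, 4 in 5 and 2 in 6. No gene was present in more than 6 of the 10 libraries. Set against all 55341 gene names of the annotation, 2053 (3.71%) were present in at least 1 control library, 248 (0.448%) in at least 2 and 69 (0.125%) in at least 3, after 28 of the 2081 genes had been left out because their names have no gene model in the release. In total, 251 genes were in at least 2 libraries and 70 in at least 3. These counts fell to 137 and 38 without C1, and the count for at least 3 libraries to 46 without C8. Without both C1 and C2 they were 99 and 19.

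Pairs of libraries had few genes in common. Over the 45 pairs, the median was 8 shared genes, or 1.85% of the genes found in either library. C1 and C2 shared the most, 63 genes, which were 8.71% of the genes of C1 and 13.6% of those of C2. The highest share of the union was 6.15%, for the 61 genes of C1 and C8, and 3 pairs shared 0 genes. Every library nevertheless shared between 20.0% (C7) and 30.3% (C3) of its genes with at least 1 other library.

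Genes shared between animals were longer than genes found in a single animal. Within each library, the median length of the shared genes was 416 ± 76.3 kb (SD, n = 10 libraries) and that of the private genes 66.8 ± 9.24 kb (SD, n = 10). The smallest shared median was 319 kb, in C5, and the largest private median was 80.8 kb, in C2, so that the medians of both kinds did not overlap over the libraries. The difference was 349 ± 78.2 kb (SD), with the shared genes longer in 10 of 10 libraries, and 339 to 412 kb when a library was left out. A gene is shared only if at least 2 of these same libraries hold it, so that it enters at least 2 of the medians and the differences of the libraries are not independent. This is therefore a description of how the genes divide, and no p is given.

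Shared genes did not stand out by their split reads. The median was 5.95 ± 2.74 split reads (SD, n = 10) for shared genes and 6.70 ± 2.36 (SD, n = 10) for private genes, a difference of -0.750 ± 1.95 (SD), with shared genes higher in 3 libraries and lower in 6. This difference was 0.444 without C1 and -1.22 without C10, so that its sign rests on single libraries. On the deposited scale, shared genes were lower, with a median log2 PpGC of 6.58 ± 0.67 against 9.32 ± 0.38 (SD, n = 10), in 10 of 10 libraries. That scale divides by gene length, which differed between the kinds of genes as given above.

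The share of genes found rose with gene length, while the number of values per length of gene was nearly flat. Of the 59 annotated genes over 1 Mb, 55 (93.2%) were present in at least 1 control library and 39 (66.1%) in at least 2. The shares were 70.7% and 28.7% for the 181 genes of 500 kb to 1 Mb, 21.4% and 2.59% for genes of 100 to 200 kb, and 4.18% and 0.151% for genes of 10 to 50 kb. Counted per 100 Mb of gene, however, the genes over 1 Mb had 172 gene-library values, those of 500 kb to 1 Mb 169, those of 100 to 200 kb 178 and those of 10 to 50 kb 182. Over all annotated genes the number was 183 per 100 Mb. In this count a gene enters at most once per library, however many circles overlap it, so that it can understate long genes. C1 alone held 35 of the 59 genes over 1 Mb.

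Only short genes departed from this rate. Genes of 1 to 10 kb had 231 values per 100 Mb and genes up to 1 kb had 881, the latter from 64 values over 7.26 Mb. A circle counts for every gene that it overlaps, whatever its own length, and circle lengths were not analysed here. With protein-coding genes only, the rate was 198 per 100 Mb up to 1 kb, from 1 value, 207 at 1 to 10 kb and between 167 and 185 in the classes from 10 kb up, so that the 881 was not seen in them. Over all annotated genes without C1 and C2, the rate was 413 up to 1 kb, 136 at 1 to 10 kb and between 80.6 and 96.8 from 10 kb up.

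**Figure D3:**
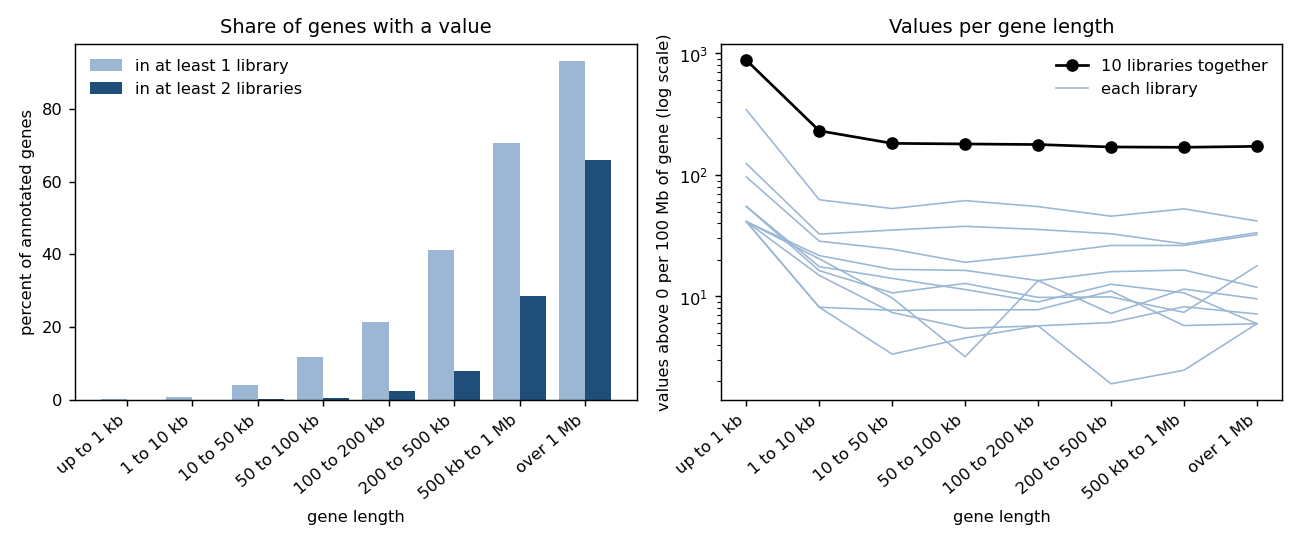
Left, bars give the percent of annotated genes in each class of gene length with a value above 0 in at least 1 (light) and at least 2 (dark) control libraries, from 0.348% and 0% up to 1 kb to 93.2% and 66.1% over 1 Mb. Right, values above 0 per 100 Mb of gene on a log scale, for the 10 libraries together (black, 881 up to 1 kb and 169 to 182 from 10 kb up) and for each library (light lines).

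The 24 genes present in at least 4 control libraries were mostly very long genes. Of the 24, 21 were protein-coding and 2 were lincRNAs, 16 were longer than 1 Mb and 20 longer than 500 kb, and 1 had no gene model. C1 held 21 of them, C2 20 and C8 16. In at least 1 library, 15 of them were at the minimum of 2 split reads. At a log2 PpGC of at least 8, which the study's democratic method counts as a vote of a library, 3 of the 24 had votes in at least 3 libraries. With this cut and at least 3 votes, more genes pass here than the study lists for controls, and the reason was not tested.

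**Figure D4:**
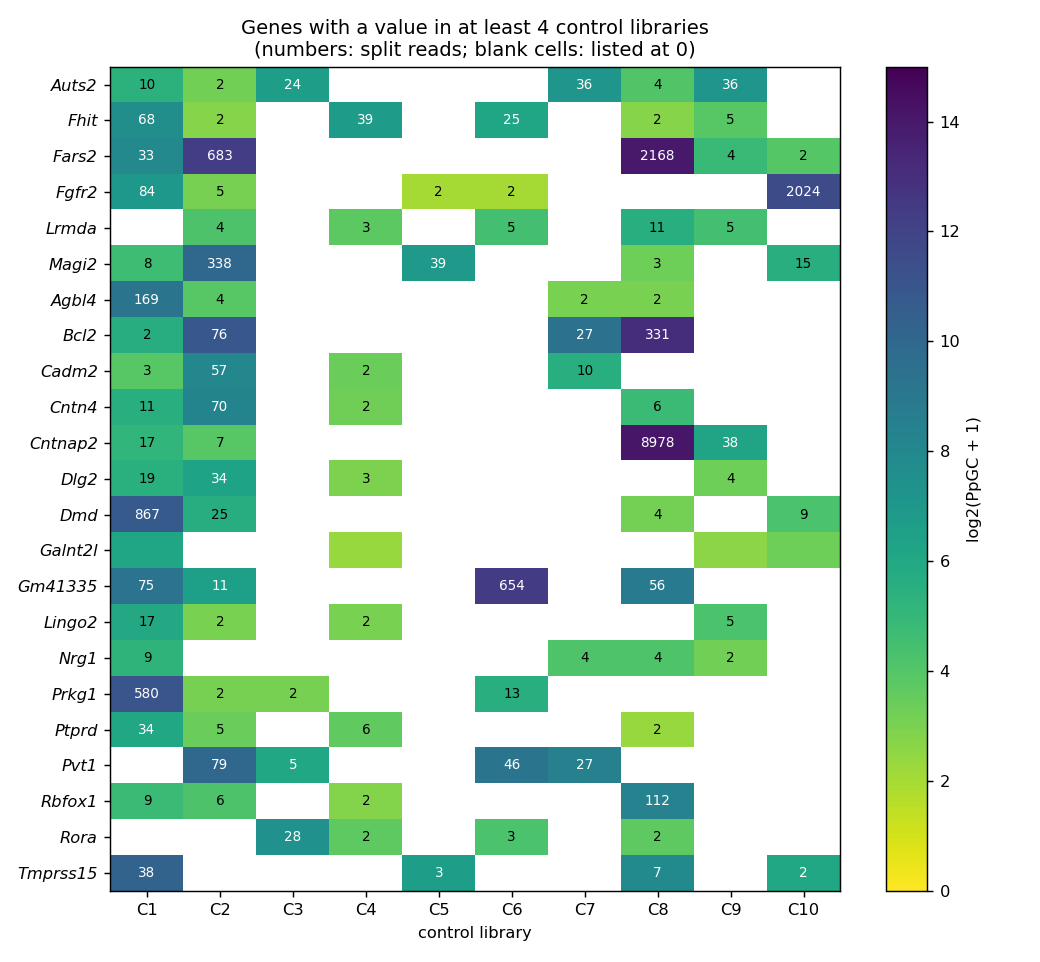
Of the genes present in at least 4 control libraries, 23 (rows) in the 10 libraries (columns). Colour gives log2(PpGC + 1) from 0 to 15, numbers are split reads, blank cells are listed at 0, and Galnt2l has no gene length from which split reads could be read. The highest numbers are 8978 for Cntnap2 and 2168 for Fars2, both in C8, and 2024 for Fgfr2 in C10.

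Auts2 and Fhit were present in the most libraries, 6 of 10 each. Auts2, a regulator of transcription in developing neurons on chr5:131437333-132543344 (1106 kb), had 10 split reads in C1, 2 in C2, 24 in C3, 36 in C7, 4 in C8 and 36 in C9. In C2, its 2 split reads were also those of the overlapping Gm42993. Fhit, a dinucleotide hydrolase whose human counterpart spans a well-known common fragile site, lies on chr14:9550092-11162035 (1612 kb) and had 68 split reads in C1, 2 in C2, 39 in C4, 25 in C6, 2 in C8 and 5 in C9. The log2 PpGC was 5.98 for Auts2 and 5.00 for Fhit at the median of the libraries that held them, below the median of all control values, and neither reached 8 in any library. Both were absent from C5 and C10, and each was at the minimum of 2 split reads in at least 1 library.

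Of the 4 genes present in 5 libraries, Fars2 and Fgfr2 had a single or a few very high values. Fars2, the mitochondrial phenylalanyl-tRNA synthetase (609 kb), had 33 split reads in C1, 683 in C2, 2168 in C8, 4 in C9 and 2 in C10. Fgfr2, a receptor of fibroblast growth factors, had 84 in C1, 5 in C2, 2 in C5, 2 in C6 and 2024 in C10. The model of Fgfr2 in the release spans 2961 kb and overlaps 69 other annotated genes, and in C5 its 2 split reads were also those of Tacc2, and circles elsewhere in this span enter its value. Magi2, a scaffold of the synapse (1478 kb), had 8 in C1, 338 in C2, 39 in C5, 3 in C8 and 15 in C10, and Lrmda, a gene of melanocyte differentiation (1036 kb), had 3 to 11 in C2, C4, C6, C8 and C9. Lrmda was the most even of the 4.

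Cntnap2, Cntn4, Cadm2 and Dlg2, adhesion and scaffold genes of neurons, were present in 4 libraries each. Cntnap2, an adhesion protein of the axon next to the node of Ranvier (2245 kb), had 17 split reads in C1, 7 in C2, 8978 in C8 and 38 in C9. Cntn4, a contactin (1022 kb), had 11 in C1, 70 in C2, 2 in C4 and 6 in C8, and Cadm2, a synaptic cell adhesion molecule (965 kb), had 3 in C1, 57 in C2, 2 in C4 and 10 in C7. Dlg2, which anchors receptors and channels at the synapse (1973 kb), had 19 in C1, 34 in C2, 3 in C4 and 4 in C9. Apart from the value of Cntnap2 in C8, none of these values was above 70 split reads.

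Lower values were seen for Lingo2, Ptprd and Nrg1. Lingo2, a leucine-rich repeat membrane protein (1245 kb), had 17 in C1, 2 in C2, 2 in C4 and 5 in C9. Ptprd, a receptor tyrosine phosphatase that organizes synapses (2271 kb), had 34 in C1, 5 in C2, 6 in C4 and 2 in C8. Nrg1, the ligand of ERBB receptors that acts in myelination (1069 kb), had 9 in C1, 4 in C7, 4 in C8 and 2 in C9. For these genes the median log2 PpGC where present was 3.63, 3.55 and 4.14, and no value reached 8.

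The other genes in 4 libraries encode enzymes, regulators and structural proteins. Dmd, the dystrophin gene on the X chromosome (2257 kb), had 867 split reads in C1, 25 in C2, 4 in C8 and 9 in C10, and Prkg1, the cGMP-dependent protein kinase (1201 kb), had 580 in C1, 2 in C2, 2 in C3 and 13 in C6. Agbl4, which removes glutamates from tubulin (1267 kb), had 169 in C1, 4 in C2, 2 in C7 and 2 in C8. Rbfox1, a splicing factor of neurons (1526 kb), had 9 in C1, 6 in C2, 2 in C4 and 112 in C8. In each of these genes a single library was far above the remaining 3.

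Rora, a nuclear receptor (734 kb), had 28 in C3, 2 in C4, 3 in C6 and 2 in C8, and it was 1 of the 3 genes with a value in 4 or more libraries that C1 did not hold, beside Lrmda and Pvt1. Tmprss15, the gut protease enteropeptidase, had 38 in C1, 3 in C5, 7 in C8 and 2 in C10, and with 138 kb it was the shortest of the 23 with a gene length. Galnt2l could not be placed, and its PpGC was 70 in C1, 4 in C4, 5 in C9 and 9 in C10. These are whole numbers before any scaling, as the longest gene of the annotation would have. Whether it is that gene under another name was not settled here. If so, these numbers are split reads, and the counts of genes over 1 Mb given above, in which that gene stands as absent, would each be 1 higher.

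Bcl2, Pvt1, Gm41335 and Mir100hg combined recurrence with a high log2 PpGC, in genes of 176 to 541 kb. At a log2 PpGC of at least 8, 46 genes of the table were in at least 2 control libraries and 4 were in at least 3, and these were the 4. This cut depends on gene length. In C7, Pvt1 reached 8.46 with 27 split reads, while the longer Auts2 had 7.18 with 36. At 10 or more split reads, 10 genes were in at least 3 libraries. Bcl2, which blocks apoptosis at mitochondria (chr1:106538178-106714274), had 2 split reads in C1, 76 in C2, 27 in C7 and 331 in C8. In C1, its 2 split reads were also those of the overlapping D630008O14Rik. Mir100hg (chr9:41327077-41716994) was in 3 libraries only, with 135 in C1, 159 in C2 and 1019 in C8, the highest median log2 PpGC, 10.82, of all genes in 3 libraries. In C1 and C8 the lincRNA Gm49317, which overlaps it, had the same split reads.

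Pvt1 and Gm41335 are neighbours on chromosome 15. Pvt1, a lincRNA beside the oncogene Myc (chr15:62037986-62378096), had 79 split reads in C2, 5 in C3, 46 in C6 and 27 in C7. Gm41335, a predicted lincRNA (chr15:63176838-63718289), had 75 in C1, 11 in C2, 654 in C6 and 56 in C8. Another lincRNA on the other side of Pvt1, D030024E09Rik (chr15:61534676-61774451), had 2 in C1, 4 in C2 and 40 in C7. Over these 2.18 Mb, whose ends were set by genes picked for being present, 3 of 23 annotated genes were present, against 3.71% of all annotated genes, in 6 of the 10 libraries together (C1, C2, C3, C6, C7 and C8). The split reads of the 3 genes differed within each library that held more than 1 of them.

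Mir100hg is the host transcript of 3 microRNA hairpins, Mir100, Mirlet7a-2 and Mir125b-1, which regulate other genes by pairing with their seed, bases 2 to 8. These hairpins have no row of their own in the table used here. For Mirlet7a-2, only a 3p sequence is given here. The mature sequences that RefSeq's table gives for the hairpins on GRCm38.p6, the same build as mm10, are shown with the seed in capitals.
mmu-miR-100-5p: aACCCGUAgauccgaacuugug
mmu-miR-100-3p: aCAAGCUUgugucuauagguau
mmu-let-7a-2-3p: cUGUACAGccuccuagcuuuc
mmu-miR-125b-5p: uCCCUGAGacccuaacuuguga
mmu-miR-125b-1-3p: aCGGGUUAggcucuugggagcu
All 5 seeds differ. In the order shown, they lie on the plus strand at chr9:41531437-41531458, chr9:41531471-41531492, chr9:41536777-41536797, chr9:41581940-41581961 and chr9:41581980-41582001.

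A single member of the 1176 annotated microRNA genes of the list was present, and no circle was specific to it. Mir7014, of 0.0630 kb on the minus strand at chr3:95734911-95734973, had 18 split reads in C6, and so had Ecm1, the extracellular matrix gene in which it lies. Its log2 PpGC of 20.27 against this number of split reads is that of a very short gene on a scale that divides by length. Its mature sequences, with the seed in capitals, are again from RefSeq.
mmu-miR-7014-5p: uUGGGUGCuguggaagggacag
mmu-miR-7014-3p: cCUCUUUCauaccaaccacag
The host gene Mir99ahg (537 kb) had 2 split reads in C10.

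Of the 46 genes in exactly 3 libraries, the 10 with the highest median log2 PpGC were Mir100hg, Nxph1, Gm47071, Sugct, Fam155a, Sulf1, Cdh7, Ttc7b, Dok6 and Col19a1. Nxph1, a secreted ligand of neurexins (301 kb), had 95 split reads in C1, 52 in C2 and 2 in C9. Sugct, a mitochondrial enzyme (838 kb), had 60 in C1, 8 in C8 and 503 in C10. Sulf1, which trims heparan sulfate (169 kb), had 11 in C5, 120 in C6 and 7 in C10, none of them in the 2 libraries with the most genes. Gm47071, an antisense transcript, had 91 in C1, 4 in C4 and 25 in C7, of which those in C1 were also those of Macroh2a1 and those in C7 those of Gm47072. The median log2 PpGC where present was between 7.36 for Col19a1 and 9.59 for Nxph1 among the 9 genes other than Mir100hg. Within each of these genes the highest value was at least 2 times the lowest.

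Gene families were described by their values per 100 Mb of annotated gene, since long genes were found more often. Of 36 lists, 34 had a value in at least 1 control library and 21 were above the 183 values per 100 Mb of all annotated genes. These include a list of 4 genes, Bcl2, Pvt1, Gm41335 and Mir100hg, that was picked for recurrence in these same libraries and holds no related genes (1036 per 100 Mb), so that its place says nothing of families. The lists were chosen with earlier results of these data known, and no test was made of them. A list can be above this number by the short length of its genes, as given above for genes up to 10 kb, and most differences rest on few values. Since a gene counts at most once per library, the number can also be low for a list of long genes. Lists of long neuronal genes were found on both sides.

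**Figure D5:**
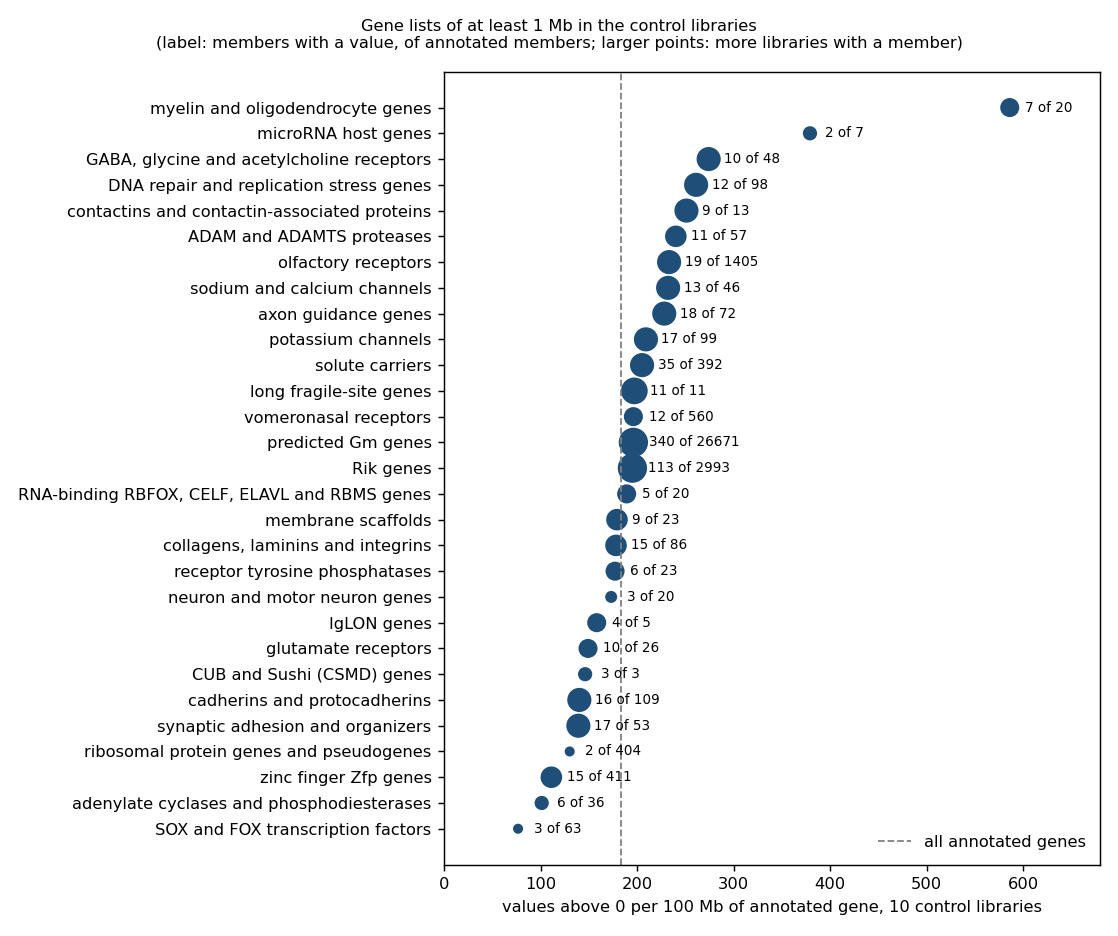
Values above 0 per 100 Mb of annotated gene over the 10 control libraries, for the lists of related genes that sum to at least 1 Mb. Labels give members with a value of annotated members, larger points mean more libraries with a member, and the dashed line is the 183 per 100 Mb of all annotated genes. Myelin and oligodendrocyte genes are at 586 (7 of 20 members), and SOX and FOX transcription factors at 76.5 (3 of 63).

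Contactins and contactin-associated proteins, which hold axons and glia together, were among the lists of long genes with the most values. Of 13 annotated members, 9 were present, 6 in at least 2 libraries and 4 in at least 3, which made 251 values per 100 Mb, and 8 of the 10 libraries held a member. Beside Cntnap2 and Cntn4, Cntnap5a had 3608 split reads in C1, 26 in C3 and 28 in C6, and Cntnap5b had 189 in C1, 3 in C8 and 2 in C10. The list had a median of 17 split reads where present, against 7 over all control values. Over all annotated genes, 3.71% were present and 0.448% were in at least 2 libraries, but few annotated genes are as long as the median member here (410 kb).

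Axon guidance genes had 18 of 72 members present, 6 in at least 2 libraries and 4 in at least 3, with 228 values per 100 Mb. Over all annotated genes, the shares were 3.71%, 0.448% and 0.125%, and the rate 183. Robo2, a receptor of SLIT proteins, had 761 split reads in C1, 2 in C2 and 5 in C3, and its ligand gene Slit3 had 159 in C1, 2 in C5 and 2 in C8. The netrin receptor gene Dcc had 521 in C1, 4 in C2 and 4 in C8, and the semaphorin receptor gene Plxna4 had 3 in C1, 2 in C3 and 3 in C8, those in C3 being also those of Plxna4os1. Of these 4 genes, which were the members in the most libraries, Robo2, Slit3 and Dcc were above 5 split reads in C1 alone, and Plxna4 in none.

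Synaptic adhesion genes and cadherins were below the rate of all genes, at 139 and 140 values per 100 Mb against 183. Their members were present more often than the 3.71%, and in at least 2 libraries more often than the 0.448%, of all annotated genes, which are shorter at the median. Of the 53 synaptic adhesion genes and organizers, 17 were present and 6 in at least 2 libraries. Nrxn3, a presynaptic neurexin (1612 kb), had 27 split reads in C1 and 12 in C2, and Tenm2, a teneurin (1229 kb), had 7 in C1 and 27 in C4, where the overlapping Gm12127 had the same number. Of the 109 cadherins and protocadherins, 16 were present and 5 in at least 2 libraries. Cdh13 had 4 split reads in C2, 2 in C4 and 2 in C10, Cdh18 11 in C2, 4 in C3 and 8 in C8, and Cdh7 10 in C3, 10 in C7 and 4 in C8. None of these 3 cadherins was in C1.

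The 5 IgLON genes encode adhesion proteins of neurons, and the 4 members present, of 755 to 2197 kb, gave the list 158 values per 100 Mb. Lsamp (2197 kb) had 2 split reads in C2, 3 in C9 and 22 in C10, and Opcml (1135 kb) had 4 in C1, 264 in C4 and 2 in C10. In C4, the overlapping Gm48091 had the same 264. Negr1 had 12 and Ntm 2 split reads, both in C8. All 3 CSMD genes were present, at 146 per 100 Mb, and Csmd1, Csmd2 and Csmd3 had at most 16 split reads in any library. Although most or all members of both lists were present, their values per length were below those of all genes (183 per 100 Mb). A gene counts at most once per library in this number, which can understate long genes. Of all annotated genes 3.71% were present, but 93.2% of those over 1 Mb and 70.7% of those of 500 kb to 1 Mb. The members present were all of such length.

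All 11 long genes of the fragile-site list were present in control cord, 9 in at least 2 libraries and 7 in at least 3. Their rate was 197 per 100 Mb, close to the 183 of all genes and the 172 of all genes over 1 Mb. Beside Fhit and Dmd, which were described above, Lrp1b, a lipoprotein receptor gene (2058 kb), had 444 split reads in C1, 64 in C6 and 2 in C10. Of the 59 annotated genes over 1 Mb, 93.2% were present, 66.1% were in at least 2 libraries, and 27 genes were in at least 3.

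Among ion channels, sodium and calcium channels had 13 of 46 members present (232 per 100 Mb), against 3.71% of all annotated genes (183 per 100 Mb). The list of potassium channels, taken by the symbol Kcn, had 17 of 99 present (209 per 100 Mb). This list includes Kcnq1ot1, named after its values were seen, an antisense RNA that had the same 2 split reads in C3 as Kcnq1. Beside Scn1a, Cacna2d3, an auxiliary calcium channel subunit (817 kb), had 481 split reads in C1 and 73 in C8, and Cacna2d1 had 2 in C2 and 8 in C5. Cacna1c, a pore-forming calcium channel subunit, was in C3, C4 and C8, with a median log2 PpGC of 6.68, and is not among the genes with whole split reads in every control library. Kcnf1, a small potassium channel gene (4.79 kb), had 4 in C9 and 29 in C10, and Kcnd2 (514 kb) had 8 in C1 and 9 in C8. Of those present, 8 of the 13 sodium and calcium channels and 13 of the 17 of the potassium channel list were in a single library, against 87.9% of all control genes.

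Receptors of GABA, glycine and acetylcholine had 10 of 48 members present, at 274 per 100 Mb, and glutamate receptors 10 of 26, at 149 per 100 Mb, against 3.71% and 183 per 100 Mb over all annotated genes. Gabrg3 had 58 split reads in C1 and 5 in C8, and Gabra2 2 in C3 and 28 in C8. These encode subunits of the GABA-A receptor. Of the glutamate receptors, Gria4 had 2 in C7 and 8 in C10, and Grm8 14 in C1 and 2 in C8. The 2 lists lay on opposite sides of the rate of all genes, from 13 and 14 values in all, and the difference between them was not tested. The first list also holds acetylcholine receptors.

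Of the genes that mark cell types of the cord, Slc1a2 alone was in more than 1 library, and over all annotated genes 0.448% were. Of 20 myelin and oligodendrocyte genes, 7 were present, each in 1 library, in 6 libraries together, at 586 values per 100 Mb from a summed length of 1.19 Mb. Over all annotated genes 3.71% were present, at 183 per 100 Mb, and 87.9% of the control genes were in 1 library. Enpp2 had 185 split reads in C1, Mobp, a protein of compact myelin, 37 in C9, Ugt8a, the enzyme that makes the myelin lipid galactocerebroside, 29 in C2, and Qk, an RNA-binding protein of oligodendrocytes, 8 in C7. Of 20 neuron and motor neuron genes, 3 were present, Rbfox3 with 160 in C2, Syt1 with 4 in C9 and Slc17a6 with 2 in C7. The glutamate transporter gene Slc1a2 was the 1 of 12 astrocyte genes present, with 27 in C1 and 4 in C10. None of the 14 microglia genes was present, which sum to 0.388 Mb only. These counts describe where circles come from in the genome and not which cells they come from.

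Genes of DNA repair and replication stress had 12 of 98 members present, 12.2% against 3.71% of all annotated genes, at 261 per 100 Mb against 183. Prkdc, the catalytic subunit of DNA-dependent protein kinase, which acts in the joining of broken ends, had 94 split reads in C2 and 3 in C8. Parp4 had 87 in C8 and Top1 30 in C2. Of the 12 members present, 10 were in 1 library each, and of all control genes 87.9% were.

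Zfp genes and SOX and FOX genes, families of transcription factors, were present in shares near the 3.71% of all annotated genes, and their values per 100 Mb were below 183. Of 411 zinc finger Zfp genes, 15 (3.65%) were present, all in 1 library each, at 111 values per 100 Mb, with 1573 split reads for Zfp449 in C7 as the highest number. The SOX and FOX list had 3 of 63 members (4.76%) at 76.5 per 100 Mb, Sox5 with 12 split reads in C7, Foxo1 with 9 in C2 and Foxo3 with 2 in C2. None of the 39 Hox genes was present, which sum to 0.340 Mb only. The list of adenylate cyclases and phosphodiesterases had 6 of 36 members at 101 per 100 Mb, none of them a cyclase and 1 of them Pde4dip, which binds phosphodiesterases. Of the 6, only Pde8b was in more than 1 library, with 2 in C1 and 9 in C9.

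Genes of chemical senses, which lie in large clusters of similar copies, were found in 8 libraries for olfactory and 6 for vomeronasal receptors, and 1 of them was in more than 1 library. Of all annotated genes 3.71% were present, with 183 values per 100 Mb, and 87.9% of all control genes were in 1 library. Of 1405 olfactory receptor genes, 19 (1.35%) were present, all in 1 library each, at 233 values per 100 Mb. Olfr1052 had 3076 split reads in C8, Olfr717-ps1 1591 in C1, Olfr1275 652 in C4 and Olfr517 618 in C7. Of 560 vomeronasal receptor genes, 12 (2.14%) were present, at 196 per 100 Mb, and Vmn1r35 alone was in 2 libraries, with 3 split reads in C1 and 268 in C2. The median where present was 78 split reads for olfactory and 64 for vomeronasal receptors, against 7 over all control values. Reads of near-identical copies may be placed on the wrong copy, and the gene named is uncertain to that extent.

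Segments of the antigen receptor loci had 16 of 653 members present (2.45%, against 3.71% of all annotated genes), in 4 libraries, all in 1 library each as 87.9% of all control genes. Their rate was 4550 per 100 Mb, the highest of the lists, from a summed length of 0.352 Mb in segments with a median length of 0.463 kb. Lymphocytes assemble these segments by V(D)J recombination, which cuts beside a heptamer next to each segment and releases the DNA in between. In C5, Traj61, Traj60 and Traj59, which follow each other on chr14:54155005-54156196, all had 249 split reads, and in C1, the 7 segments Trbj2-1 to Trbj2-7 on chr6:41542754-41543856 all had 9. The segments of each set span 1.19 kb and 1.10 kb, and whether a single circle covers a set was not tested, since circle positions were not analysed here. Traj40, elsewhere in the same locus as the first set, had 2 split reads in C9, and Ighv1-48 had 186 in C3. Traj40 and the Trbj2 segments were named after their values were seen.

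Of the 11 J segments with a value, those of the T cell receptor alpha locus and the first and last Trbj2 segments are shown, to let the bases at the cutting site be read, with the 30 bases before each, as read from the plus strand of GRCm38.p6 on chromosomes 14 and 6. The 7 bases directly before the segment, the position of a heptamer, are in capitals whether or not they form one.
Traj61: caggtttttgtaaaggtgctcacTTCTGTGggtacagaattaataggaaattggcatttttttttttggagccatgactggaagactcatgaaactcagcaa
Traj60: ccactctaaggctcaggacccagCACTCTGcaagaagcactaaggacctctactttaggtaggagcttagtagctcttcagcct
Traj59: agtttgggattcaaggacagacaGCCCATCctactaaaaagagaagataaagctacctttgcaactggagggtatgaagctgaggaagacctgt
Traj40: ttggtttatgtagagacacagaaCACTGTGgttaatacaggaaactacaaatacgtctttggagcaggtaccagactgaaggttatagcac
Trbj2-1: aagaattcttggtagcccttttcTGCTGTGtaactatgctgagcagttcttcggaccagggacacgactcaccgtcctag
Trbj2-7: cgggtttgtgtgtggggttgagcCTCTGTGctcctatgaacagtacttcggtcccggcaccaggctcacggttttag
The sequences begin at chr14:54154975, chr14:54155903, chr14:54156103, chr14:54177891, chr6:41542724 and chr6:41543780 and end with the segments. The letters CACTGTG stood directly before 15 of 60 annotated Traj segments (25.0%) and 1 of 14 Trbj segments (7.14%), and of the 11 J segments with a value only before Traj40. On either strand anywhere in these windows they were found in 24 of 60 and 2 of 14 (14.3%). No match means only that these letters are not in the window.

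Chromosomes differed in their values per 100 Mb of gene, from 13.3 on the Y chromosome, which held 1 value, 73.2 on the X chromosome and 87.6 on chromosome 10 to 229 on chromosome 15 and 263 on chromosome 14. Males have a single X and a single Y chromosome. Chromosome 2 had the most genes present, 174. Apart from the X and Y chromosomes and chromosomes 10 and 18 (120), all chromosomes lay between 146 and 263. These are counts over 10 libraries of very different size and were not tested.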

How the data were processed

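Cervical eccDNA of 10 control mice was analysed. The authors mapped reads to mm10 with Circle_Finder (minNonOverlap 10 bp), merged circles within 10 bp, removed mitochondrial circles and those with fewer than 2 split reads, and assigned circles to GENCODE genes with bedtools. The authors deposited log2 values of length-scaled split reads plus 1, not scaled between samples. The GENCODE release is not given in the sources used here. The table had 0 columns of samples from outside the series.

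Gene names were matched to GENCODE M21, 8106 by name and 67 by a RefSeq synonym, and 163 were not matched. Split reads were used for genes whole within 0.02, and at least 2, in every control library with a value, which left out 58 genes. The reads of each library are not given in the sources used here, and split reads limit the precision. The reading back was tested on data simulated with the same gene lengths and returned 348 of 348 known values. This checks the calculation and cannot show whether the authors used these lengths. Shared and private genes were compared within libraries. The planned exact sign-flip test (1024 patterns) is not reported, since shared genes enter several libraries. The correlation used 100000 resamples (seed 20). SciPy 1.17.1, pandas 2.3.3 and NumPy 2.4.6 were used under Python 3.11.15, and plots were drawn in matplotlib 3.10.9.

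Members and lists were chosen with earlier results of these data known. Genes named were those in at least 4 libraries, the top 10 by median log2 PpGC of those in 3, the gene with the most split reads per library, Mir100hg, Bcl2, Pvt1 and Gm41335, and up to 4 members per list, those in the most libraries. Alternatives were thresholds of log2 PpGC and of split reads, loci in place of genes, protein-coding genes, means, log10 values, the genes of the table as background and leaving out each library. Leaving out C1 and C2 together, protein-coding genes alone by length class, and split reads with each locus counted once, were chosen after seeing the data, when the microRNA list was also corrected to leave out host genes. Some genes are not reported here.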

Additional observations from a re-analysis of the deposited data

Results flagged for a closer look

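Of 31 measures of the 10 control libraries, 4 had a library whose gap to its neighbour was larger than Dixon's 95% critical value for 10 samples, and chance gives this in about 1 of 20 groups. The median split reads of genes were highest in C1, at 12. Genes on chromosome 1 made up 16.2% of the genes of C10, the highest share, against a median of 5.61% over the libraries. Chromosome 16 held 8.46% of the genes of C10, also the highest share, against a median of 3.97%. Chromosome 9 held 0% of the 57 genes of C5, the lowest share, against a median of 5.16%.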

How the results depend on the processing

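Genes per library were 141 at a log2 PpGC of at least 8 and 102 at 10 or more split reads, in place of 243. Genes in at least 2 libraries were then 46 and 57 in place of 251, and genes in at least 3 were 4 and 10 in place of 70. Without C1 and C2 they were 99 and 19, and leaving out 1 library at a time gave 137 to 243 and 38 to 68. Recovered split reads gave a level of 6.50 split reads in place of a log2 PpGC of 8.44, another unit. The difference in split reads between shared and private genes ranged from -1.22 (without C10) to 0.444 (without C1, where it changed sign), and the cause was not tested. The difference was 0 without C2. Gene length and log2 PpGC of shared and private genes kept their direction under every alternative run. With the genes of the table as background, 26 lists were above all genes in the share of members present, in place of 21 by values per 100 Mb. Both the background and the measure changed, since this share takes no account of gene length. Lists moved in both directions. Synaptic adhesion genes (53.1%) came to lie above the 25.0% of all genes of the table, and olfactory receptors (16.7%) below. No paired analysis was possible because libraries of different groups that share a replicate number come from different animals and only control libraries were used, while shared and private genes were compared within each library. The minimum of 2 split reads per circle limits what is seen.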

Other observations

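Of 9931 processed pseudogenes, 52 (0.524%, against 3.71% of all annotated genes) were present in control cord. None was in more than 1 library, and 87.9% of all control genes were in 1 library. They had a median of 8 split reads and 660 values per 100 Mb at a median length of 0.551 kb, against 183 over all annotated genes. Of 2638 unprocessed pseudogenes, 12 (0.455%) were present, with a median of 18 split reads. LincRNAs (188 values per 100 Mb), antisense transcripts (188) and protein-coding genes (177) had nearly the same number of values per length. Of 5842 lincRNAs, 202 (3.46%) were present, 19 in at least 2 and 5 in at least 3 libraries. Over all annotated genes, these shares were 3.71%, 0.448% and 0.125%, so that the share of lincRNAs present was near that of all genes. Of the 105 histone genes listed by their symbols, H3f3b was present (0.952%), with 4 split reads in C5. Of 404 ribosomal protein genes and pseudogenes 2 (0.495%) were present, Rpl19-ps3 with 4 split reads in C9 and Rpl31-ps9 with 2 in C1. Both shares were below the 3.71% of all annotated genes.

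Solute carriers, which move ions and metabolites across membranes, had 35 of 392 members present at 205 values per 100 Mb, 7 of them in at least 2 libraries, against 3.71%, 183 per 100 Mb and 0.448% over all annotated genes. Slco5a1 had 316 split reads in C1 and 996 in C4, and Slc26a8 had 245 in C1 and 24 in C2. ADAM and ADAMTS proteases had 11 of 57 members (240 per 100 Mb, against the same 3.71% and 183). Adam12 had 5 split reads in C2 and 5 in C9.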
